A study of Mus musculus with 9 samples.

Results

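Apoe and 5 other genes of lipid transport were followed in mouse brain cells: Apoe, Clu and Apod, whose secreted proteins carry lipid, the exporters Abca1 and Abcg1, and the receptor Lrp1. They were taken by symbol, from a set drawn up with earlier results of these data known, and make up 6 of the 12580 gene symbols listed in every file (33274 symbols are in at least 1). The cells came from patient-derived orthotopic xenografts (PDOXs), 7 of them untreated and named P3, P8, P13, T16, T101, T192 and T233, 1 treated with temozolomide (P3TMZ), and from 1 tumor-free brain (Nu-NB). A PDOX is grown by placing glioblastoma (GBM) organoids of a patient in the mouse brain, so the tumor is human and the tumor microenvironment (TME) is of the mouse. All hosts, Nu-NB included, were nude mice, which lack a thymus and so most mature T cells but keep their microglia and other innate immune cells, and the study's methods describe them as female athymic animals. No age and no transgene is given.

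P3 is labelled untreated, and per the methods the controls of the temozolomide (TMZ) experiment were given vehicle, while TMZ, an alkylating drug, was given by oral gavage. Each library stands for 1 tumor model, T192 and T233 came from the same patient, and Nu-NB is a single sample, so the spread between normal brains was not measured. FACS was used to sort Nu-NB and P8, and magnetic beads for all other libraries. The same split separates an older from a newer release of gene symbols, so that sort and symbol release cannot be told apart. The pair of FACS-sorted libraries is therefore the only PDOX and brain comparison within a sort.

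Apolipoprotein E, the protein of Apoe, is the main lipid carrier of the brain and is made by astrocytes and, when they are activated, by microglia. Clusterin, encoded by Clu, is a second carrier and an extracellular chaperone, and apolipoprotein D, encoded by Apod, is a lipocalin that binds small lipids. ABCA1 hands cholesterol and phospholipid to lipid-poor apolipoproteins and ABCG1 adds cholesterol to the particles so formed. LRP1 is a large endocytic receptor that takes up apolipoprotein E particles among many other ligands.

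Drop-seq counts unique molecular identifiers (UMIs), 1 per captured transcript, at the 3′ end of mRNA. The files held 1519323 UMIs for Nu-NB, 1294068 to 8410580 for the untreated PDOXs and 1709049 for P3TMZ. After filtering, 14626 of 33998 barcodes were kept as cells, 722 to 2771 per library, and their median depth was 513 to 1275 UMIs. No pair of libraries shared more than 2 cell barcodes. Cells were clustered without the 6 genes, and clusters were named from marker lists, with the ending "-like". The largest classes were myeloid-like (4156 cells), astrocyte-like (2935) and endothelial-like cells (2218), followed by OPC-like (oligodendrocyte progenitor, 980), mural-like (529), ciliated ependymal-like (267), neuronal-like (174), fibroblast-like (130) and choroid plexus-like cells (97). A further 2687 cells, 1001 of them in T101, stayed unnamed and 453 were mixed. Levels are counts per 1000000 UMIs (CPM) after adding up all cells of a class within a library, where it had at least 10 such cells, and intervals on single libraries are exact 95% Poisson intervals that cover counting error only.

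Apoe lies at chr7:19696109-19699188 on the minus strand (GRCm38, GENCODE vM21). In the PDOXs it was highest in myeloid-like cells, with 10168 CPM in P13 as the lowest value, a median of 28422 and 44429 in P8 as the highest. Astrocyte-like cells held 11860 (T16) to 26866 CPM (T233) with a median of 19926 over the 6 PDOXs with enough such cells. P3 had only 4 astrocyte-like cells and gave no value. The other classes followed with PDOX medians of 10670 CPM in ciliated ependymal-like, 5309 in mural-like, 4979 in fibroblast-like, 4447 in choroid plexus-like, 2068 in OPC-like, 1813 in endothelial-like and 755 in neuronal-like cells.

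Within the same PDOX, the leading classes did not separate: myeloid-like cells were above astrocyte-like cells in 4 of 6 PDOXs, with a mean log2 difference of 0.32 ± 0.63 (SD, n = 6; two-sided exact sign-flip permutation test, p = 0.281). Both stood far above endothelial-like cells. Myeloid-like cells exceeded endothelial-like cells in 7 of 7 PDOXs, by 3.97 ± 0.95 on the log2 scale, while 18.0% of genes were higher in myeloid-like cells in every PDOX. Astrocyte-like cells exceeded endothelial-like cells in 6 of 6 PDOXs by 3.70 ± 1.3 (17.1% of genes did so) and OPC-like cells by 2.97 ± 0.35 (9.61% of genes). Differences are of log2(CPM + 10), which understates those of low genes. The number of PDOXs allows no raw p under 0.0156 for 7 or 0.0312 for 6, and after adjustment over the 60 comparisons of class pairs and genes no p went below 0.0625. Neighbours lower in the order overlapped: OPC-like cells were above endothelial-like cells in 4 of 6 PDOXs (mean log2 difference of endothelial-like minus OPC-like cells -0.72 ± 1.26), and mural-like cells ranged from 463 CPM in T101 to 36943 in T233.

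**Figure D1:**
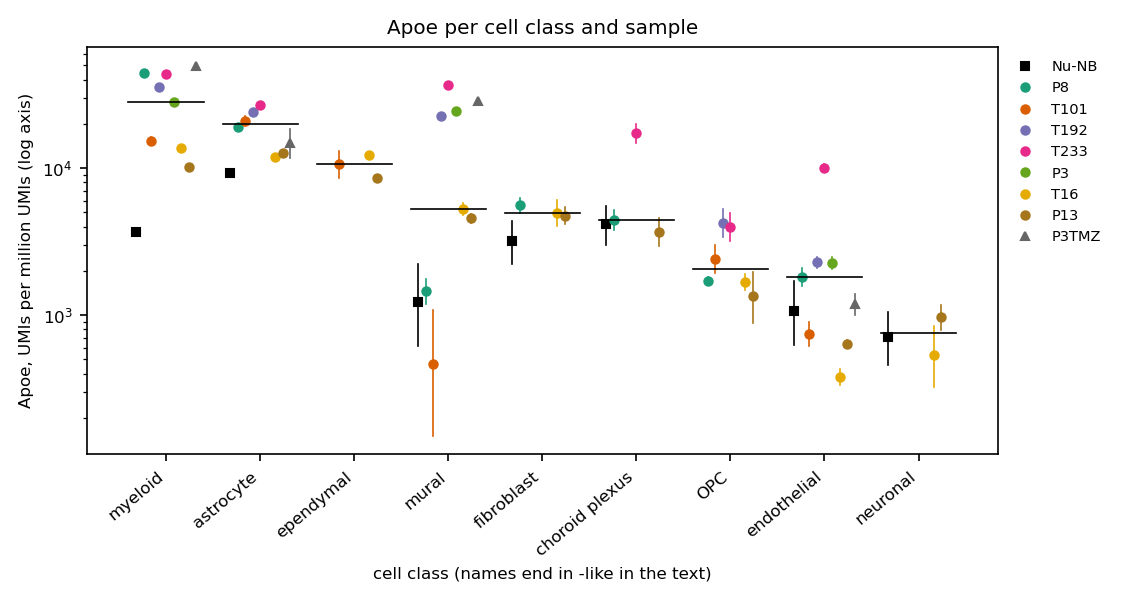
Apoe level (CPM, log axis) in each cell class and library. Squares are Nu-NB, circles the untreated PDOXs, triangles P3TMZ, vertical lines exact 95% Poisson intervals (counting error only) and horizontal lines the median of the PDOXs. Every PDOX lies above Nu-NB in myeloid-like cells (10168 to 44429 against 3695 CPM) and in astrocyte-like cells (11860 to 26866 against 9221 CPM). The mural-like cells spread widely between PDOXs, from 463 CPM in T101 to 36943 in T233.

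Apoe was higher in the myeloid-like cells of every PDOX than in those of Nu-NB, where its level was 3695 CPM from 1355 UMIs. The median of the PDOXs was 7.69-fold the Nu-NB value and the lowest PDOX, P13, was still above it. The groups did not overlap, as was so for 16.3% of the 9156 genes tested that were higher in all 7 PDOXs. With edgeR's quasi-likelihood test, the log2 fold change was 3.06 (SE 1.01, FDR = 0.112), which missed the threshold of an FDR of 0.01. Under the other edgeR settings tried, the FDR was 0.066 to 0.209, and DESeq2 gave a log2 fold change of 3.08 with an FDR of 0.00085. The edgeR test called 7 genes in myeloid-like cells (0.0765% of those tested), all lower in PDOXs and none of them a gene of the set, and 4 of them were hemoglobin genes. This count moved with the setting: it was 104 without P8 and 275 with DESeq2. Within the FACS-sorted pair, Apoe was 12-fold higher in P8 than in Nu-NB (95% interval 11.4 to 12.7, counting error only).

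In astrocyte-like cells Apoe was 9221 CPM in Nu-NB and higher in 6 of 6 PDOXs, with a PDOX median 2.16-fold above it. Of all genes tested, 14.7% were higher in each of these PDOXs. The log2 fold change was 0.98 (SE 0.57, FDR = 0.525), and edgeR called no gene in this class (0.0% of 5793), although 369 were higher and 277 lower at an unadjusted p under 0.05. DESeq2 called 1, and edgeR called 11 without P8. P8 stood 2.06-fold above Nu-NB (1.99 to 2.13).

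In Nu-NB, Apoe was lower in myeloid-like than in astrocyte-like cells (log2 difference -1.32), while the PDOXs ranged from -0.44 (T101) and -0.31 (P13), in the same order as Nu-NB, to 1.23 (P8). These differences were set side by side after the levels had been seen, and with 1 brain they are given as a description.

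In the remaining classes the groups overlapped or rested on few UMIs. Endothelial-like cells held 1068 CPM in Nu-NB, from 17 UMIs in 34 cells, and 380 to 10084 CPM in the PDOXs, 4 of them above Nu-NB and 3 below (log2 fold change 2.12, SE 1.66, FDR = 0.550, where the median over all genes was 0.64). Fibroblast-like cells held 3179 CPM in Nu-NB against 5573 in P8, 4979 in T16 and 4761 in P13, all higher (27.9% of genes were), with a log2 fold change of 0.96 (SE 0.58, FDR = 0.787). In T16, 1 cell held 52 of the 94 Apoe UMIs of this class, and without it T16 was at 2434 CPM, below Nu-NB. Choroid plexus-like cells held 4144 CPM in Nu-NB and 4447, 17364 and 3681 in P8, T233 and P13, so that the groups overlapped. In T233, 1 cell held 84 of 180 Apoe UMIs of this class, whose myeloid markers reached 22.4% of the myeloid-like level. Neuronal-like cells were low throughout, with 710 CPM in Nu-NB, 539 in T16 and 971 in P13. OPC-like cells, too few in Nu-NB for a comparison, ranged from 1342 to 4263 CPM.

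Apoe was also compared within the myeloid-like class, between cells with at least 2 UMIs of the activation markers Spp1, Cst7, Itgax, Clec7a and Gpnmb and cells with none, after each cell had been thinned to 500 UMIs. These genes mark microglia that respond to damage. Cells under 500 UMIs and cells with a single marker UMI were left out. Cells with the markers held 18.7 Apoe UMIs on average over the PDOXs and cells without them 8.91. Each PDOX showed the same direction: P8 went from 9.05 to 28.1, T101 from 2.44 to 16.2, T192 from 14.4 to 21.8 and T233 from 20.5 to 26.1. P3 went from 9.0 to 17.0, T16 from 4.48 to 13.7 and P13 from 2.44 to 8.19. The mean difference was 9.82 ± 4.90 UMIs (SD, n = 7), higher in 7 of 7 PDOXs. The exact sign-flip test gave p = 0.0156, the smallest that 7 PDOXs allow, and 0.188 after adjustment over 12 tests. Of 1675 genes compared, 3.34% were higher with the markers in every PDOX. Cells of T233 without the markers still held more Apoe than cells of T101, P3, T16 and P13 with them. In P3TMZ, not part of the test, Apoe went from 11.1 to 31.1 UMIs. The T101 values rest on 15 cells with and 18 without the markers.

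**Figure D2:**
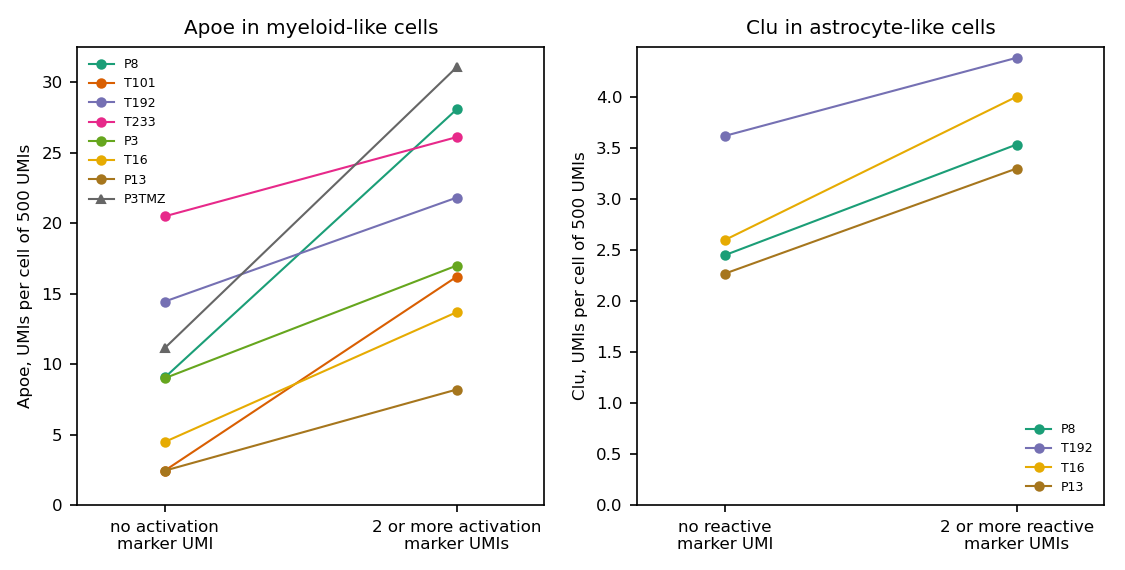
Mean UMIs per cell thinned to 500 UMIs for Apoe in myeloid-like cells without and with activation markers (left) and for Clu in astrocyte-like cells without and with reactive markers (right), one line per library. All lines run upward, for Apoe from 8.91 to 18.7 and for Clu from 2.73 to 3.8 on average over the untreated PDOXs.

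The 4 clusters that made up the myeloid-like class are given as a description because the clustering used all other variable genes of these cells. The cluster led by Lpl, Ccl6, Spp1 and Itgax held 14086 CPM of Apoe in P13, the lowest, and 58512 in P8, the highest. The cluster led by Il7r, Tmem119 and P2ry12, the latter being homeostatic microglia genes, held 3237 (P13) to 17014 CPM (T192) and 3736 in Nu-NB. In each of the 7 PDOXs the first cluster was above the second. Another cluster, led by the inflammatory genes Tnf and Cxcl2 and by Cd69, took 3.55% (P8) to 42.3% (P13) of the myeloid-like cells of the PDOXs. It held 8853 (T101) to 40517 CPM (T233), above the Tmem119 cluster in each PDOX and below the Spp1 cluster in all but P3 (30612 against 27894 CPM). The last, led by H2-Eb1 and ribosomal protein genes, took 36.1% of the myeloid-like cells of P8 and at most 0.769% elsewhere, and held 45271 CPM in P8. The Spp1 cluster took 1.09% of the myeloid-like cells of Nu-NB and 12.3% to 82.7% of those of the PDOXs, while the Tmem119 cluster took 97.8% in Nu-NB and between 2.98% and 53.0% in PDOXs. Nu-NB and the PDOXs thus differed in the makeup of the class as well as in its level, and the part of the makeup was not tested. Among PDOXs the level did not follow the share of the Spp1 cluster throughout: T101 had 62.9% at 15387 CPM and P8 46.0% at 44429. These shares count cells, while the level pools UMIs. Over the PDOXs the Tnf cluster held 117892 of the 220807 Apoe UMIs of the class in 715 cells. The Spp1 cluster held 47376 in 1755 cells. For the homeostatic cluster alone, 6 of the 7 PDOXs lay above Nu-NB and P13 lay below. Outside the class, an unnamed cluster led by Mrc1, F13a1, Clec10a and Lyve1 held 33416 CPM in T16 (35 cells), 28891 in P13 (25 cells) and 30357 in Nu-NB (30 cells), so that Nu-NB lay between these PDOXs.

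Apoe in a cell class that does not make it can come from free RNA in the droplets, so its level was set beside that of 11 myeloid markers (C1qa, Ctss and others). Barcodes with fewer than 200 detected genes, which hold free RNA and cell debris, held 5189 (T16) to 26460 CPM (T233) of Apoe in the PDOXs, leaving out P13 with 3 such barcodes, and 6373 in Nu-NB. Endothelial-like cells held 2.76% to 23.0% of the Apoe level of myeloid-like cells of the same PDOX, and 0.927% to 18.0% of their myeloid marker level, both highest in T233. Without cells that held a defining marker of another class, their median Apoe level was 971 CPM (402 to 2432). Their summed myeloid markers were 329 to 7030 CPM, with 9 of the 11 markers found in P8 (Csf1r and P2ry12 at 0) and all 11 in the other 6 PDOXs. Among cells of at least 500 UMIs, thinned to 500, a median of 35.5% of endothelial-like cells held an Apoe UMI (17.3% to 64.3%), against 40% in Nu-NB. Of neuronal-like cells, which should lack the gene, 20% in T16 and 30.5% in P13 did so (thinned to the same depth). Endothelial-like cells held 0.865 to 2.39 Apoe UMIs per myeloid marker UMI and the barcodes with few genes 0.680 or more, so that these shares are not read as expression by endothelial-like or neuronal-like cells.

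Mural-like and ciliated ependymal-like cells carried much more myeloid RNA. Summed myeloid markers in mural-like cells reached 80.4% of the myeloid-like level in T192, 90.1% in T233 and 85.8% in P3, against 1.78% in P8 and 2.04% in T101, and Apoe stood at 64.0%, 84.4%, 86.4%, 3.29% and 3.01% in the same order. T16 and P13 lay between, with 31.6% and 30.6% of the markers and 38.6% and 44.8% of Apoe. All 11 markers were found in T192, T233, P3, T16 and P13, whereas P2ry12 and Laptm5 were at 0 in P8 and C1qc, Csf1r, Cx3cr1, Fcer1g and P2ry12 in T101. The number of Apoe UMIs per myeloid marker UMI in P3 was 0.664 in mural-like and 0.659 in myeloid-like cells. The high mural-like values of Apoe (22791 CPM in T192, 36943 in T233 and 24547 in P3) are therefore levels of a class that also held myeloid RNA. Without cells that carried a defining marker of another class, the level in this class was 4432 CPM in T192, 1988 in P8 and 251 in T16, and no other PDOX had enough cells. Ciliated ependymal-like cells had 32.4% to 64.5% of the myeloid marker level and 69.3% to 88.9% of the Apoe level.

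Astrocyte-like cells did not show this pattern. Their myeloid markers reached 1.77% (P8) to 14.7% (T233) of the myeloid-like level, while their Apoe reached 42.7% to 136%, and Apoe UMIs per myeloid marker UMI ran from 4.66 to 25.6 in 6 PDOXs, against 0.311 to 1.12 in the myeloid-like cells of 7. Between 98.4% and 100% of thinned astrocyte-like cells held an Apoe UMI, and 73.9% to 98.8% of myeloid-like cells. Leaving out cells with markers of another class left the median level of Apoe at 28401 CPM in myeloid-like and 20449 in astrocyte-like cells.

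**Figure D3:**
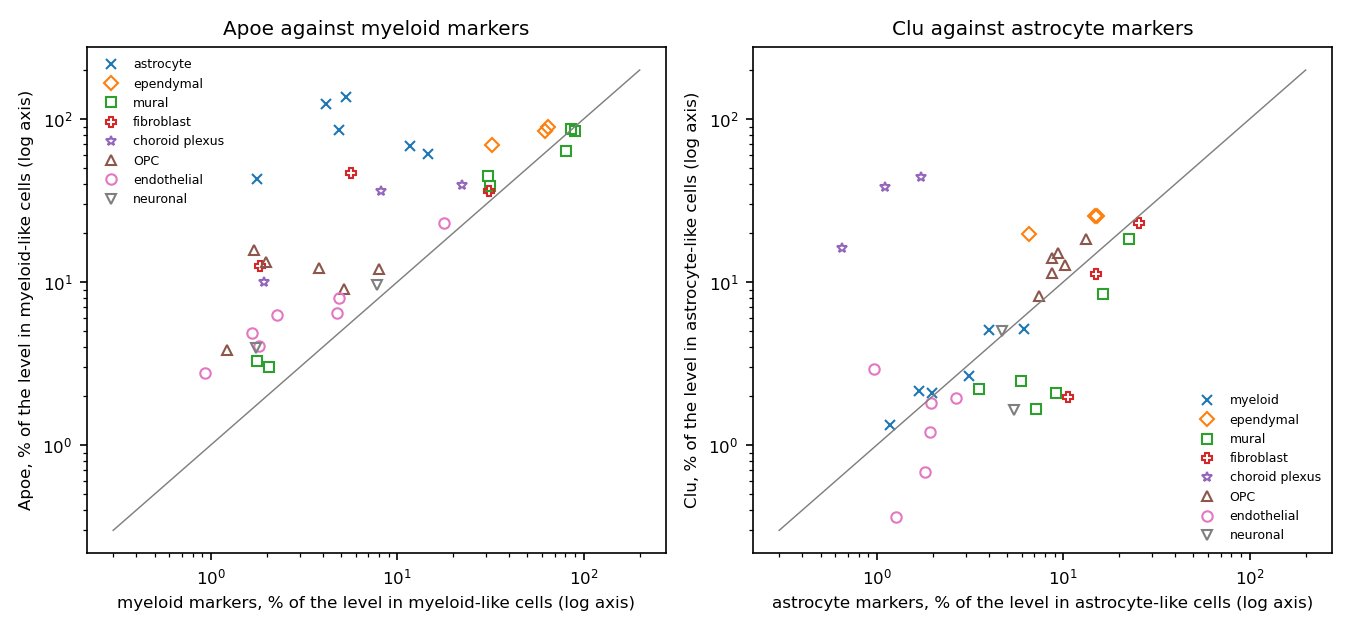
Left, Apoe against the summed myeloid markers, both as a percentage of the level in myeloid-like cells of the same PDOX. Right, Clu against the summed astrocyte markers as a percentage of the level in astrocyte-like cells. Both axes are logarithmic, each symbol is one class in one untreated PDOX and the grey line marks equal percentages. Astrocyte-like cells lie far above the line for Apoe (42.7% to 136% at 1.77% to 14.7% of the markers) and choroid plexus-like cells for Clu, while the mural-like cells of T192, T233 and P3 lie close to it for Apoe.

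Clu, at chr14:65968483-65981547 on the plus strand, was highest in astrocyte-like cells in the PDOXs with enough such cells. They held 4829 (P13) to 8302 CPM (T233) with a median of 5418 over 6 PDOXs, and myeloid-like cells held 69.3 to 268 with a median of 173. Astrocyte-like cells were higher in 6 of 6 PDOXs, with a log2 difference of myeloid-like minus astrocyte-like cells of -5.10 ± 0.73 (22.1% of genes were lower in myeloid-like cells in every PDOX). They stood above the others by 6.13 ± 0.92 over endothelial-like and 2.93 ± 0.39 over OPC-like cells. Choroid plexus-like cells came next, with 2021, 1351 and 2129 CPM in P8, T233 and P13, then ciliated ependymal-like cells with 1104 to 1323 and OPC-like cells with 398 to 1163. Endothelial-like cells, with 9.85 to 244 CPM, were lowest by the median (63.0). In Nu-NB the order at the top was the other way, with 5085 CPM in choroid plexus-like cells (54 UMIs) and 4545 in astrocyte-like cells.

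The spread of astrocyte RNA was followed with 10 astrocyte markers. Endothelial-like cells held 0.364% to 2.94% of the Clu level of astrocyte-like cells and 0.972% to 2.68% of their markers. A median of 4.30% of thinned endothelial-like cells held a Clu UMI (0 to 8.16%), and without cells that held a marker of another class the median was 0%. Choroid plexus-like cells differed, with 16.3% to 44.1% of the Clu level at 0.655% to 1.73% of the astrocyte markers. OPC-like cells held 8.23% to 18.3% of the Clu level at 7.47% to 13.2% of the markers, so that their Clu UMIs lay near the line of equal percentages. Myeloid-like cells, with 1.32% to 5.15% of the level at 1.18% to 6.16% of the markers, did so too. In OPC-like cells the marker Gja1 had no UMI in T101, T192, T233 and P13, while all 10 markers were found in P8 and T16. Without cells that held a marker of another class, OPC-like cells still held a median of 506 CPM of Clu (475 to 651, 4 PDOXs). Whether these UMIs came from spread RNA was not tested.

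Against Nu-NB, Clu in astrocyte-like cells was 4545 CPM in the brain and higher in 6 of 6 PDOXs, though by 1.19-fold at the median (log2 fold change 0.37, SE 0.51, FDR = 0.813). In choroid plexus-like cells it was lower in 3 of 3 PDOXs, from 5085 CPM in Nu-NB to a median of 2021 (34.2% of the 284 genes tested were lower in all 3), with a log2 fold change of -1.18 (SE 0.77, FDR = 0.786). Neither passed the test. P8 against Nu-NB gave 1.15-fold (1.10 to 1.22) in astrocyte-like and 0.397-fold (0.276 to 0.575) in choroid plexus-like cells.

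Astrocyte-like cells with at least 2 UMIs of the reactive markers Gfap, Vim, Cd44, Serpina3n and Lcn2 held more Clu than those with none in each of the 4 PDOXs with enough cells. Per 500 UMIs, P8 went from 2.45 to 3.53, T192 from 3.62 to 4.38, T16 from 2.60 to 4.0 and P13 from 2.27 to 3.30. The mean difference was 1.07 ± 0.26 UMIs (SD, n = 4, 1.39-fold), and the exact test gave p = 0.125, the smallest that 4 PDOXs allow, and 0.625 after adjustment. Of 1631 genes, 10.6% were higher in all 4. Apoe in the same cells was 9.21 with and 8.38 without the markers, higher in 3 of 4 PDOXs (exact p = 0.375).

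Apod, at chr16:31296192-31314808 on the minus strand, was highest among the named classes in fibroblast-like cells, the stromal cells that line vessels and the meninges. It stood at 32072 CPM in P8, 18590 in T16 and 24849 in P13, against 8743 in Nu-NB. All 3 PDOXs were above Nu-NB, with a log2 fold change of 1.80 (SE 0.63, unadjusted p = 0.018) that did not pass adjustment over the 980 genes tested (FDR = 0.671), and edgeR called none of these genes. The brain value rests on 18 cells and 99 UMIs. P8 alone was 3.67-fold above Nu-NB (2.99 to 4.54).

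Among the named classes endothelial-like cells came next, with 106 (T233) to 1331 CPM (T101) and a median of 295, which exceeded astrocyte-like cells in 6 of 6 PDOXs (log2 difference of astrocyte-like minus endothelial-like cells -3.51 ± 0.75, where 35.6% of genes lay the same way in each) and myeloid-like cells in 7 of 7 (myeloid-like minus endothelial-like -2.60 ± 1.0, 31.8% of genes). Nu-NB had no Apod UMI in 34 endothelial-like cells, all of them in the cluster led by Cxcl12 and Gkn3. There 3 UMIs would have been 189 CPM, so that the PDOX median was 1.56-fold that floor, while T233 lay below it. The log2 fold change was 10.7 (SE 4.52) and was not called. Over all PDOXs that cluster held 355 CPM of Apod, and the cluster led by Scgb3a1 and Gimap4 held 544. T101, P3 and T16 lay above the others, at 1331, 1266 and 604 CPM. Medians of the other classes were 258 CPM in neuronal-like cells (2 PDOXs, 0 and 517), 152 in ciliated ependymal-like (0 to 464), 109 in mural-like (12.6 to 621), 75.0 in myeloid-like, 28.6 in astrocyte-like, 6.70 in OPC-like and 0 in choroid plexus-like cells. Single cells carried some of these values. In P3, 1 myeloid-like cell of 64072 UMIs over all symbols of its file held 66 of the 110 Apod UMIs. The level without it was 206 CPM in place of 407, where levels count only UMIs of symbols listed in every file. In its mural-like cells 1 cell held 33 of 35.

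**Figure D4:**
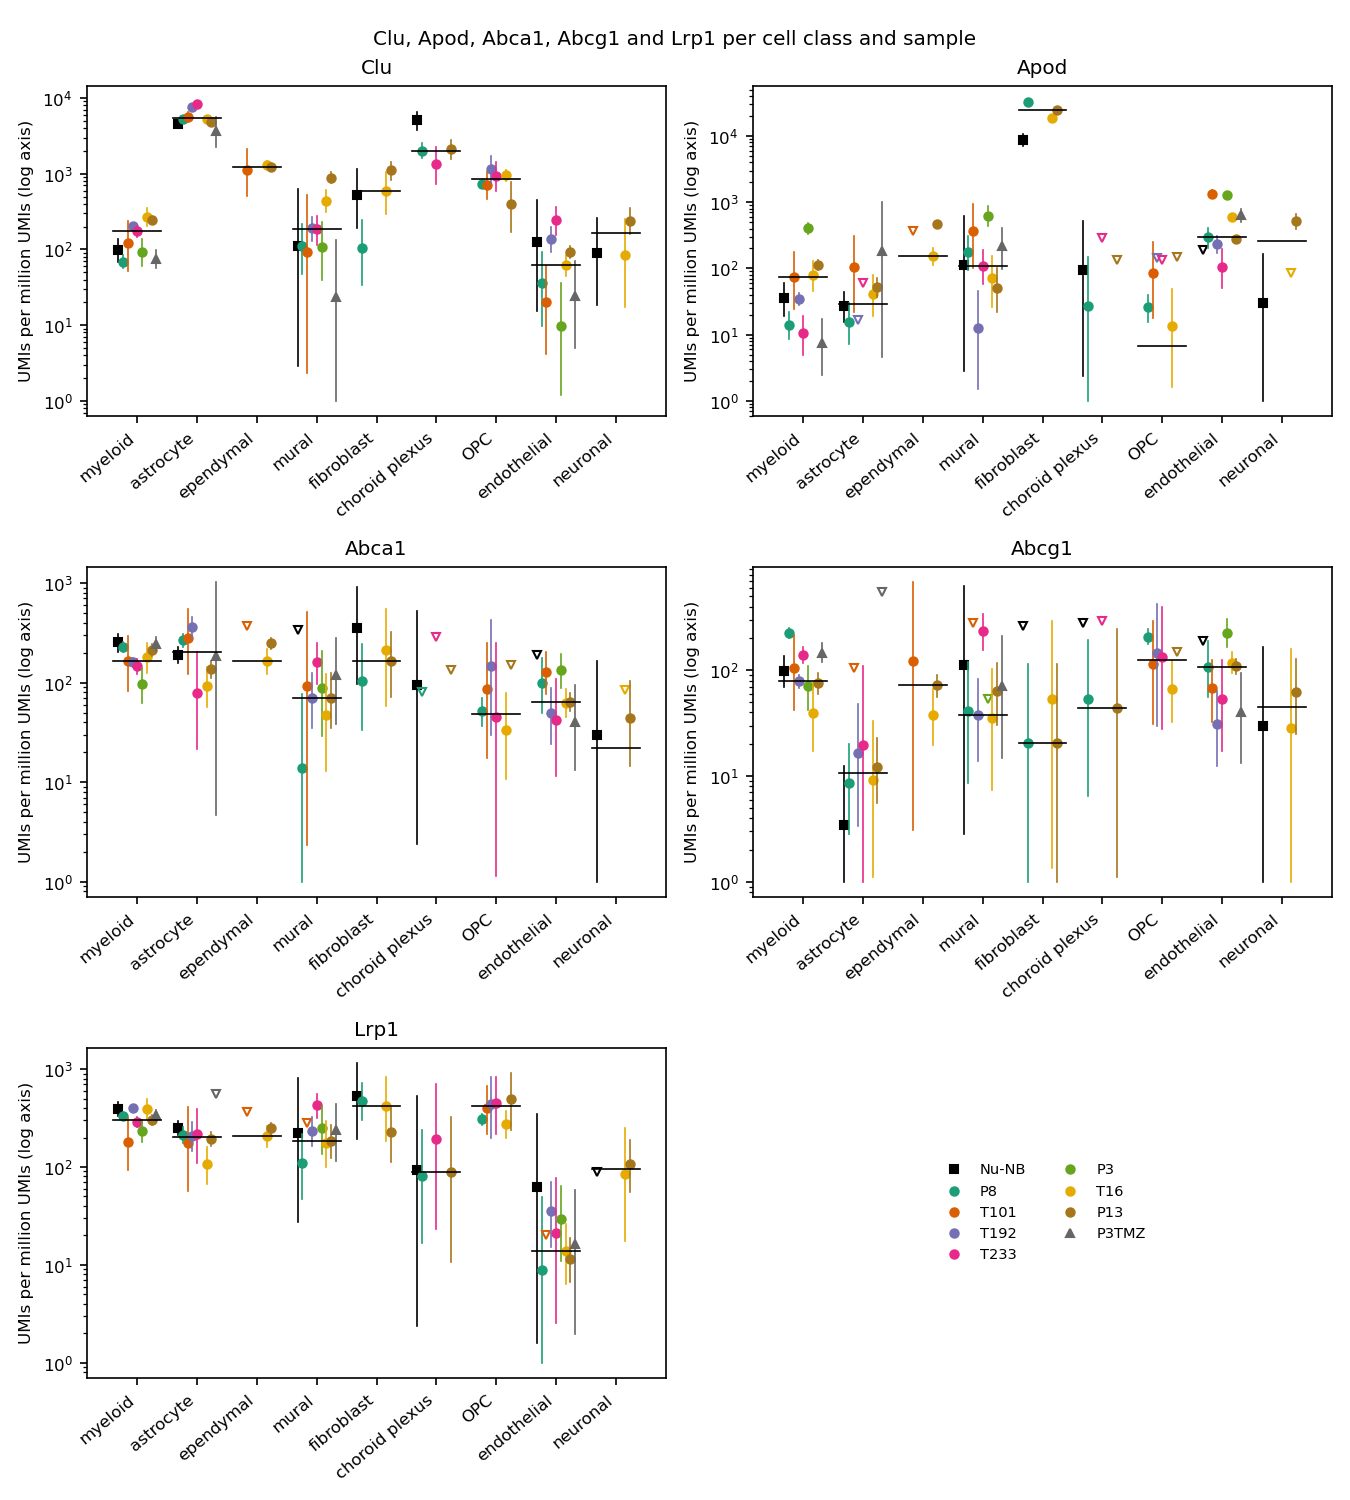
Levels of Clu, Apod, Abca1, Abcg1 and Lrp1 (CPM, log axes) per class and library, with symbols as in the plot of Apoe levels. Open downward triangles mark libraries with no UMI, drawn at the level that 3 UMIs would give, and interval lines are drawn no lower than 1. In the PDOXs Clu is highest in astrocyte-like cells (4829 to 8302 CPM), Apod in fibroblast-like cells (18590 to 32072), and Lrp1 is lowest by the median in endothelial-like cells (0 to 35.6).

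Abca1, at chr4:53030787-53159895 on the minus strand, was found at low levels in many classes. PDOX medians were 201 CPM in astrocyte-like, 165 in myeloid-like and ciliated ependymal-like and 164 in fibroblast-like cells, and then 70.1 in mural-like, 64.4 in endothelial-like and 48.2 in OPC-like cells. The first 2 did not differ beyond their spread (log2 difference of myeloid-like minus astrocyte-like cells 0.04 ± 0.85, higher in 3 of 6 PDOXs). Astrocyte-like cells exceeded endothelial-like cells in 6 of 6 PDOXs by 1.22 ± 0.76 and OPC-like cells by 1.81 ± 1.12.

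Abca1 in myeloid-like cells was 254 CPM in Nu-NB, from 93 UMIs, and 96.3 (P3) to 227 CPM (P8) in the PDOXs with a median of 165, below Nu-NB in 7 of 7. Of all genes tested, 30.1% were lower in every PDOX. Without cells that held markers of another class, P8 lay above Nu-NB (264 against 243 CPM). Within the homeostatic cluster P8 (334 CPM, 19 UMIs) and T192 (295 CPM, 5 UMIs) lay above Nu-NB (262 CPM) and the other 5 below. The log2 fold change was -0.44 (SE 0.41, FDR = 0.561) and did not pass the test, and P8 against Nu-NB was 0.89-fold (0.708 to 1.14). In astrocyte-like cells, 3 PDOXs lay above and 3 below the Nu-NB level of 191 CPM.

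Abca1 and Apoe are textbook targets of the liver X receptors, nuclear receptors that sense oxysterols and bind direct repeats of a short half-site with RXR. As both are such targets, the sequences upstream of their starts are shown, from RefSeq on GRCm38.p6. RefSeq windows of 250 bases before the start were at hand for 4 of the 6 genes. The Abca1 window is chr4:53159896-53160145 and the Apoe window, 1 of 3 annotated starts and the one that begins at the gene's outer end, is chr7:19699189-19699438, both given on the minus strand, 5′ to 3′.
Abca1: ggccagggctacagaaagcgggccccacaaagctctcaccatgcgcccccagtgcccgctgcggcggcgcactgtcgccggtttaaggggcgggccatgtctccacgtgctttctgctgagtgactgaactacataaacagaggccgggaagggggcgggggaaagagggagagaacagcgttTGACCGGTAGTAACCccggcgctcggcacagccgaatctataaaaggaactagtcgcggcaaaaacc
Apoe: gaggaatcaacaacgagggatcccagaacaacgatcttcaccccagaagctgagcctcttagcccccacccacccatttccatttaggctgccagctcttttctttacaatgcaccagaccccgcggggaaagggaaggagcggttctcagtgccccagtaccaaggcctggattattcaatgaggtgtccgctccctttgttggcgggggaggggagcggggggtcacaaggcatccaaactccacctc
Capitals mark the one match to GGTNA, 5 bases of any kind and GGTCA, searched on both strands and found on the strand opposite to the gene, 52 bases before the Abca1 start. The pattern was chosen after the Abca1 letters had been seen. It was found in 58 of 32851 such windows (0.177%) and in none of the windows of Apoe, Lrp1 and Apod, which says only that these letters are not in those windows.

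Abcg1, at chr17:31057675-31117988 on the plus strand, set myeloid-like apart from astrocyte-like cells. Myeloid-like cells held 39.7 (T16) to 224 CPM (P8) with a median of 78.8, and astrocyte-like cells 0 to 19.8 with a median of 10.7, from 20 UMIs in all 6 PDOXs. Myeloid-like cells were higher in 6 of 6 PDOXs, by 2.43 ± 0.95 on the log2 scale (31.5% of genes were higher in each). Endothelial-like cells (31.2 to 227 CPM) and OPC-like cells (0 to 208 CPM) were at levels like those of myeloid-like cells: the log2 difference of myeloid-like minus endothelial-like cells was 0.07 ± 1.2, higher in 4 of 7 PDOXs. Nu-NB myeloid-like cells held 98.2 CPM from 36 UMIs, inside the range of the PDOXs, of which 3 were above and 4 below (log2 fold change 0.29, SE 0.69, FDR = 0.842). P8, however, was 2.28-fold above Nu-NB (1.61 to 3.32) within the FACS-sorted pair. So Abcg1, unlike Apoe, took different sides of Nu-NB in different PDOXs.

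Lrp1, at chr10:127538161-127621148 on the minus strand, was lowest in endothelial-like cells. PDOX medians were 424 CPM in fibroblast-like, 418 in OPC-like, 303 in myeloid-like, 206 in ciliated ependymal-like, 201 in astrocyte-like and 185 in mural-like cells. They were 96.0 CPM in neuronal-like (2 PDOXs) and 88.7 in choroid plexus-like cells (3 PDOXs), and 13.8 in endothelial-like cells, where the highest PDOX had 35.6. T101 had no Lrp1 UMI in mural-like or ciliated ependymal-like cells, where 3 UMIs would have been 278 and 368 CPM. Myeloid-like cells exceeded endothelial-like cells in 7 of 7 PDOXs by 3.63 ± 0.62 and astrocyte-like cells in 6 of 6 by 0.73 ± 0.60. OPC-like cells exceeded astrocyte-like cells in 6 of 6 PDOXs (log2 difference of astrocyte-like minus OPC-like cells -1.05 ± 0.29, where 19.0% of genes lay the same way in each), and did not separate from myeloid-like cells (higher in 4 of 6). The brain held 395 CPM of Lrp1 in myeloid-like cells and the PDOXs 180 to 402, 6 of 7 below (log2 fold change -0.21, SE 0.44, FDR = 0.817, and 0.086 without cells that held markers of another class). In astrocyte-like cells it was 251 CPM in Nu-NB and lower in 6 of 6 PDOXs, 106 to 218 (19.3% of genes were lower in each), with a log2 fold change of -0.48 (SE 0.43, FDR = 0.694).

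For the 5 genes other than Apoe, the mean differences between myeloid-like cells with and without activation markers were -0.040 (Lrp1) to 0.028 (Abcg1) UMIs per 500, 1 to 5 of 7 PDOXs were higher with the markers, and adjusted exact p-values were 0.625 to 0.806. Cells with the markers held 0.022 (Apod) to 0.162 (Lrp1) UMIs of these genes on average. No difference was found, and with 7 PDOXs the exact sign-flip test allows no raw p under 0.0156.

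The levels were set beside those of 60 further genes of lipid handling that are in every file, of a list of 70. In myeloid-like cells 52 were tested and edgeR called none at an FDR of 0.01, with 3 at an FDR of 0.05 (1.03% of all genes), and 19 higher and 1 lower at an unadjusted p under 0.05 (10.7% and 10.2% of all genes). Their median log2 fold change was 1.11, against 0.02 over all genes, and 20 of the 52 were higher in every PDOX than in Nu-NB (38.5%, against 16.3% of all genes) while 6 were lower (11.5%, against 30.1%). By role, all 3 further particle genes, 5 of 10 receptors, 6 of 12 genes of uptake, storage and oxysterols, 3 of 11 of cholesterol synthesis and 2 of 10 sensors and regulators were higher at an unadjusted p under 0.05. Of 6 transporters none was higher and 1 was lower.

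The largest myeloid-like differences of the list were Ch25h, which makes 25-hydroxycholesterol, the scavenger receptor gene Msr1 and the fatty acid binding protein gene Fabp5. All had no UMI in Nu-NB, where 3 UMIs make 8.18 CPM. PDOX medians of 492, 157 and 109 CPM were thus at least 60.1-fold, 19.2-fold and 13.4-fold higher, with edgeR FDRs of 0.057, 0.050 and 0.042. Apoc1, the gene next to Apoe in the same cluster of apolipoprotein genes, rested on 3 UMIs (8.18 CPM) in Nu-NB and was 105 to 1089 CPM in the PDOXs (FDR = 0.060). In the other direction, the transporter gene Abca9 was 1203 CPM in Nu-NB and at most 333 in the PDOXs (log2 fold change -2.53, SE 0.48, FDR = 0.033). Mylip, which encodes a ubiquitin ligase, was 325 CPM in Nu-NB and had a median of 155 in the PDOXs (FDR = 0.288). Genes were named only if Nu-NB lay outside the range of the PDOXs, so that their shared direction in every PDOX follows from the choice.

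In astrocyte-like cells, of 45 genes of the list tested, 5 were higher and 0 lower at an unadjusted p under 0.05 (6.37% and 4.78% of all genes), 6 were higher (13.3%, against 14.7% of all genes) and 4 lower (8.89%, against 19.3%) in every PDOX, and the median log2 fold change was 0.10, against 0.03 over all genes. Named by the same rule as higher in the PDOXs were Apoc1 (24.1 CPM in Nu-NB, PDOX median 59.2), Npc2, which moves cholesterol out of lysosomes (165 and 435), the brain fatty acid binding protein gene Fabp7 (452 and 895), and Lrp10 (29.2 and 58.3). Named as lower were Abca5 (86.0 and 33.8), the apolipoprotein E receptor gene Lrp8 (70.5 and 39.8) and Cyp51 of cholesterol synthesis (272 and 160). Their FDRs were 0.391 to 0.662. In endothelial-like cells 25 genes of the list were tested, of which 1, Lrp8 (FDR = 0.388), was higher and 0 were lower at an unadjusted p under 0.05 (10.5% and 1.65% of all genes). Nu-NB held at most 2 UMIs of each of the genes named here (higher in PDOXs: Lrp8, Insig2 and Plin2; lower: Abca9, Osbp and Insig1). Nu-NB, with 16 mural-like cells, gave no call among 19 genes in that class either, nor among 7 in fibroblast-like and 2 in choroid plexus-like cells, and 0 of them had an unadjusted p under 0.05.

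P3TMZ was set beside P3 as 1 library against 1, no test of the treatment was run, and the intervals cover counting error only. In myeloid-like cells Apoe was 28422 CPM in P3 and 49443 in P3TMZ, a ratio of 1.74 (1.70 to 1.78). Among 4263 genes with at least 30 UMIs, 12.5% were at least 1.5-fold higher and 14.8% at least 1.5-fold lower in P3TMZ. Both exporters were higher, Abca1 from 96.3 to 244 CPM (ratio 2.53, 1.67 to 3.99) and Abcg1 from 70.4 to 147 (2.09, 1.27 to 3.62), and Lrp1 had a ratio of 1.45 (1.09 to 1.94). Clu had a ratio of 0.819 (0.498 to 1.38). Apod was 407 and 7.43 CPM, and 206 CPM in P3 without the cell that held 66 of its 110 UMIs. Without cells that held markers of another class, P3 had 1 Apod UMI (20.1 CPM) and P3TMZ 0, so that no direction is read for Apod. The makeup of the class differed as well: the Lpl and Spp1 cluster took 80.5% of the myeloid-like cells in P3 and 47.1% in P3TMZ. Apoe was higher in P3TMZ within this cluster (27894 and 63496 CPM) and within the homeostatic cluster (6298 and 18710 CPM). In the Lpl and Spp1 cluster Abca1 was 93.1 CPM in P3 and 158 in P3TMZ, and Abcg1 93.1 and 187. The homeostatic cluster of P3, of 20 cells, had no UMI of either exporter. For Abca1, P3 was the lowest of the untreated PDOXs, and the highest, P8, held 227 CPM. Of the 24 further genes of the lipid list with at least 30 UMIs in this class, 5 were at least 1.5-fold higher in P3TMZ and 4 at least 1.5-fold lower, with a median ratio of 0.903.

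In endothelial-like cells Apoe was 2262 CPM in P3 and 1184 in P3TMZ (ratio 0.524, 0.432 to 0.632), while 12.7% of 2128 genes were at least 1.5-fold higher and 20.3% lower. In P3, 1 cell held 269 of the 459 Apoe UMIs, and without it the level was 958 CPM and the ratio 1.24, so that the direction rested on that cell. Apod (ratio 0.506, 0.388 to 0.654), Abca1 (0.305, 0.0917 to 0.803) and Abcg1 (0.179, 0.0555 to 0.449) were lower in P3TMZ, the exporters from 5 UMIs each. The makeup of this class differed too: the cluster led by Scgb3a1 and Gimap4 held 146 cells in P3 and 46 in P3TMZ, and that led by Cxcl12 and Gkn3 held 66 and 81. Within the Scgb3a1 cluster Apod was 1529 and 947 CPM, Abca1 155 and 64.0, and Abcg1 249 and 64.0. Without cells that held markers of another class, Abcg1 had a ratio of 0.451 (0.0429 to 2.75), from 5 and 2 UMIs. Clu and Lrp1 had too few UMIs. Astrocyte-like cells could not be compared because P3 had 4 of them. In mural-like cells, where myeloid markers reached 85.8% and 53.1% of the myeloid-like level in P3 and P3TMZ, Apoe had a ratio of 1.17 (1.08 to 1.26). In P3, 1 cell held 677 of the 1384 Apoe UMIs, and in P3TMZ 1 cell held 672 of 1201. The ratio without the P3 cell alone was 1.40. With 10% of cells left out as likely doublets the ratio was 0.0795 (0.053 to 0.115), from 1281 UMIs in P3 and 29 in P3TMZ, so that no direction is read from this class.

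**Figure D5:**
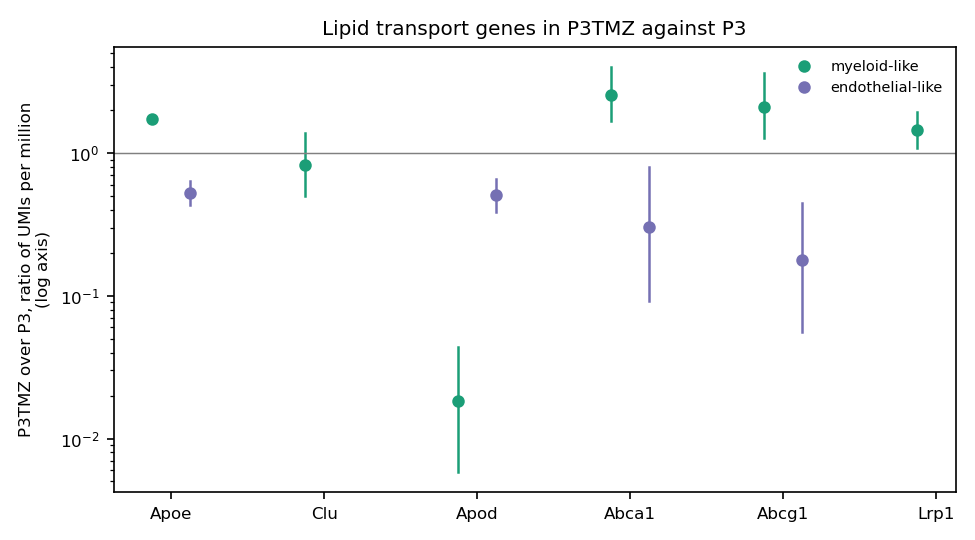
Ratio of the level in P3TMZ to that in P3 (log axis) for each gene with at least 30 UMIs over both libraries, in myeloid-like (green) and endothelial-like cells (purple), with exact 95% intervals for counting error only. In myeloid-like cells Apoe, Abca1, Abcg1 and Lrp1 lie above 1 (1.45 to 2.53) and Apod far below. The Apod value rests on P3 cells that held markers of another class, without which P3 had 1 UMI and P3TMZ 0. In endothelial-like cells Apoe lies at 0.524 with, and at 1.24 without, a single P3 cell.

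Across the 44 sums of one class in one untreated PDOX, the genes whose pattern was most like each of the 6 were found by Pearson's r of log2(CPM + 10) among 3867 genes with a mean of at least 50 CPM. The sums share libraries and classes, so r is a description. Apoe was most like the lysosomal protease genes Ctsb (r = 0.88) and Ctsd (0.794), Cd63 (0.804), Psap (0.799) and Cst3 (0.793). Clu was most like Mt3 (0.933), Fam213a, Ntrk2, Gpr37l1 and Prdx6, all at 0.844 or more, of which Gpr37l1 is one of the astrocyte markers. Apod was most like Nid1 (0.787), Edn3, Uaca, Foxc1 and Lum, the last a fibroblast marker. The rarer genes had weaker partners, with Tmem219 for Abca1 (0.762), Cttnbp2nl for Abcg1 (0.679) and Itgav, an integrin subunit gene, for Lrp1 (0.766) at the top. Among the 6 themselves the highest r was 0.517, between Apoe and Lrp1, and the lowest -0.41, between Clu and Apod.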

How the data were processed

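Drop-seq libraries of the mouse TME were measured in 9 samples. The authors aligned reads with STAR to mm10 and deposited UMI counts per gene and barcode for mouse cells. These counts were used as deposited, and no column was left out (0 unused). Reads were not examined here.

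Cells were barcodes in which 200 genes or more were detected and mitochondrial UMIs made up 30% or less, and the 5% with the highest scrublet score in each sample were left out as likely doublets. Cells were clustered with scanpy 1.11.5 and leidenalg 0.10.2 (2000 variable genes without the 6 genes, the lipid list and mitochondrial genes, 30 components, 20 neighbors, resolution 1, no batch correction). A cluster was named where at least 3 markers and 50% of the marker list were raised 2-fold. This naming rule was set after the clusters had been seen. The genes and lists were chosen with earlier results of these data known.

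Counts were summed per class and sample with at least 10 cells. PDOXs and Nu-NB were compared with edgeR 4.0.16 (quasi-likelihood, TMM, Benjamini-Hochberg FDR of at most 0.01 and an absolute log2 fold change of at least 1), with DESeq2 1.42.0 as an alternative. On simulated data with 200 genes changed 8-fold, edgeR recovered 47.0% of them in myeloid-like (9156 genes), 72.5% in astrocyte-like (5793) and 2.5% in endothelial-like cells (6247). Class pairs and marker splits were compared within PDOXs by two-sided exact sign-flip tests, the first on log2(CPM + 10), the second on cells thinned to 500 UMIs. All thinned values leave out cells under 500 UMIs, and the splits leave out cells with a single marker UMI. With 1 sample of normal brain, p-values rest on the spread among PDOXs. Besides the 6 genes, the genes of the lipid list that were named are those past the threshold or, where none was, up to 4 per direction with the largest fold change among those with at least 50 CPM and a Nu-NB value outside the range of the PDOXs. A few results that the rules would name are not reported here. Normalization, filters, thinning, class size, resolution and each PDOX in turn were varied.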

Additional observations from a re-analysis of the deposited data

Results flagged for a closer look

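Among 30 groups of PDOXs, each 1 gene in 1 class, 4 held a library far from the others by Dixon's test, where chance gives about 1 in 20. In endothelial-like cells, Apoe stood at 10084 CPM in T233 (951 UMIs), against 380 to 2289 CPM in the other PDOXs, and the myeloid markers of these cells were also highest in T233 (18.0% of the myeloid-like level). In myeloid-like cells, Apod stood at 407 CPM in P3 against 10.4 to 114 in the others, and 1 cell held 66 of its 110 UMIs. In OPC-like cells, Apod was 85.6 CPM in T101, from 3 UMIs, against 0 to 25.8. In mural-like cells, Abcg1 was 235 CPM in T233, from 28 UMIs, against 0 to 63.7, in the library whose mural-like cells had the highest myeloid markers (90.1%).

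Clu lay on opposite sides of Nu-NB in 2 classes: the PDOX median was 1.19-fold the Nu-NB level in astrocyte-like cells, with all 6 PDOXs above, and 0.397-fold in choroid plexus-like cells, with all 3 below. This difference between the classes was not tested.

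Clusters that stayed unnamed entered no comparison, and not all of them are reported here. In the cluster led by Ly6c2, Ccr2 and Klrk1, Apoe was 17754 CPM over all PDOXs (468 cells) and 9151 in Nu-NB (32 cells). In the one led by Mrc1, F13a1, Clec10a and Lyve1, it was 34163 CPM (72 cells) and 30357 (30 cells), with P13 below Nu-NB.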

How the results depend on the processing

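For PDOXs against Nu-NB, no paired analysis was possible because the labels give no replicate numbers shared between the groups, while class pairs and marker splits were compared within each PDOX. Of 457 values for the log2 fold changes of the 6 genes under an alternative, 431 kept direction and call, 25 reversed and 1 became a call. Apoe in myeloid-like cells was 3.08 with DESeq2, a call. Counts of genes called in myeloid-like cells (7) were 275 with DESeq2, 2 without cells holding markers of another class, 1 at resolution 2, 94 at an FDR of 0.05 with no fold limit, and 5 to 104 when 1 PDOX was left out (104 without P8). In astrocyte-like cells (0) they were 1 with DESeq2, 26 with no filter, 8 at 10% mitochondrial UMIs, 2 without cells holding other markers, and 0 to 11 with 1 PDOX left out (11 without P8). Leaving out 1 PDOX gave 0 to 1 calls in choroid plexus-like (1 without P8) and 0 to 1 in fibroblast-like cells (1 without P13).

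Without cells holding other markers, Clu (-0.63) and Lrp1 (0.086) reversed in myeloid-like cells. In astrocyte-like cells at 10% mitochondrial UMIs, Clu was -0.0030, Apod -0.027 and Abca1 -0.056. Apod was also -0.056 at resolution 2 and -0.27 to 0.43 with 1 PDOX left out. Abca1 was -0.037 with DESeq2, -0.032 with RLE factors, -0.057 with no filter, -0.056 with all symbols in the library size, and -0.25 to 0.14 with 1 PDOX left out (below 0 without P8, -0.12, T101, -0.013, and T192, -0.25). Clu in endothelial-like cells was -0.10 with T192 and T233 summed, -0.27 at 10% mitochondrial UMIs, -1.01 at resolution 2 and -0.26 to 0.33 with 1 PDOX left out (below 0 without T192, -0.26, T233, -0.20, and P13, -0.11). Abcg1 in mural-like cells was -0.082 with DESeq2 and -0.0090 with RLE factors. In fibroblast-like cells Clu was -0.30 to 1.02 and Lrp1 -0.44 to 0.13 with 1 PDOX left out, and Lrp1 was 0.11 with no filter.

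Between classes, 12 of 18 comparisons passed an adjusted p of 0.05 without cells holding other markers and 13 of 18 with at least 30 cells per class, where fewer comparisons were made, against 0 of 60. Clu in myeloid-like minus astrocyte-like cells was then -6.35 and -5.10, Apoe in myeloid-like minus endothelial-like cells 4.46 and 3.97, and Clu in astrocyte-like minus endothelial-like cells 7.42 and 6.13. In the activation split, Abca1 was 0.0137 and Abcg1 -0.0057 UMIs with thinning to 300, and Clu -0.033 to 0.0096 with 1 PDOX left out. The ratio of P3TMZ to P3 for Apoe was 1.64 in myeloid-like cells with at least 500 genes, 1.70 without cells holding other markers and 1.63 at resolution 2. In endothelial-like cells it was 1.22 and 1.25 under the last 2 and 1.24 without the P3 cell with the most Apoe, a setting added after seeing the data. In mural-like cells it was 0.0795 with 10% doublets left out. The share of endothelial-like cells with an Apoe UMI was 60% with no thinning, and that with a Clu UMI 0% without cells holding other markers. The cause of these changes was not tested. Nu-NB, with 34 endothelial-like and 16 mural-like cells, limits what depth allows in those classes.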
